A study of Sus scrofa with 40 samples.

Results

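Transcripts of 10 genes linked to the choice of cargo for autophagy, above all damaged mitochondria, were followed in mature oocytes of the pig (Sus scrofa), which rest at metaphase II until fertilised. They were TAX1BP1, OPTN, SQSTM1, NBR1, BNIP3, BNIP3L, FUNDC1, PINK1, PHB and PHB2. As a list they are called receptors below, although PINK1 is a kinase. The genes were chosen by name, with earlier results of these data known, and each of the 10 had a row among the 38794 rows that name a gene. The series compared mtDNA-deficient with mtDNA-normal oocytes of a hybrid of Large White, Duroc and Berkshire pigs. Pools gave 5 deficient libraries (A1, A2, A3, B2 and B4) and 6 normal ones (A2, A3, A4, B1, B2 and B4), and single oocytes gave 14 deficient and 15 normal libraries. No treatment, age or time is given in the labels, which do not explain how the states were told apart, although titles carry neg or pos (BCBneg or BCBpos for single oocytes), and do not give the number of oocytes in a pool or the animals.

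Macroautophagy encloses cargo in a double membrane that fuses with the lysosome, and a receptor ties the cargo to ATG8 proteins (LC3 and GABARAP) on that membrane. In one route, the kinase PINK1 builds up on a damaged mitochondrion and phosphorylates ubiquitin, the ligase parkin adds more ubiquitin, and soluble adaptors such as OPTN, TAX1BP1, SQSTM1 and NBR1 bind it. In the other, receptors that sit in the outer mitochondrial membrane, such as BNIP3, BNIP3L and FUNDC1, bind ATG8 proteins themselves, and the inner membrane protein PHB2 can do so after the outer membrane ruptures. Oocytes carry many mitochondria, which embryos receive almost only from the mother. Transcript counts show neither protein levels nor the rate of mitophagy.

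Pools held 14480546 to 29538982 counts each and single oocytes 706929 to 3067523. Levels are given as counts per 1000000 counts assigned to named genes (CPM), which do not correct for gene length, so genes are not compared with each other by level. Single-oocyte libraries came from another kit, and 1 row of them, LOC102158401, took 46.7% to 76.0% of the counts against at most 0.0275% in pools. All 8 oocyte markers tested had counts in each group, summing to 2123 to 8854 CPM in a pool, or 1215 to 4973 CPM for an oocyte sequenced alone. Markers of cumulus and granulosa cells, which surround the oocyte, summed to 62.4 to 193 CPM in deficient pools (107 to 167 CPM in the normal ones). Of 16, 5 and 7 were at 0, AMH, FOXL2, INHA, LHCGR and NR5A1 among both. VCAN (mean 66.0 CPM over pools) and INHBA (50.3) made up most of the sum, with STAR (1.41) and PTGS2 (1.30) next. In single oocytes the cumulus and granulosa markers summed to 20.1 to 54.3 CPM in deficient and 7.82 to 42.5 CPM in normal ones. Of 16, 4 were at 0 in each, AMH and GJA1 among both, and INHBA was the highest (mean 15.2 CPM). The 3 stroma markers with a row summed to 3.53 to 12.3 CPM in a pool and 1.96 to 55.7 CPM in a single oocyte. COL1A2 was the highest of them there (mean 17.7 CPM). In a pool, fewer cells of a type and less RNA per cell cannot be told apart, and the part of these markers in the values below was not tested.

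TAX1BP1, an adaptor that binds ubiquitin and ATG8 proteins and also restrains NF-kB signalling, was abundant in pools, at levels that overlapped between the mtDNA states. In deficient pools it stood at 3313 (A1), 5340 (A2), 4392 (A3), 2903 (B2) and 2790 CPM (B4), and in normal pools between 2233 and 4424 CPM with a median of 3434. The highest value, in deficient A2, lay above all normal pools, the lowest, in normal B2, below all deficient ones, and the groups overlapped between. The means were 3748 ± 1092 CPM (SD, n = 5) and 3379 ± 795 CPM (SD, n = 6), a log2 difference of 0.30 (SE 0.31) by edgeR, and of 0.02 without deficient A2. It took 0.355% ± 0.0911 of the counts of a pool (SD, n = 11), but 0.0125% ± 0.00357 of those of a single oocyte (SD, n = 29). Deficient single oocytes held 73.2 to 226 CPM with a median of 123, and normal ones 89.6 to 182 CPM with a median of 117.

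The other ubiquitin-binding adaptors differed from each other in how they varied. OPTN, optineurin, a main adaptor of parkin-dependent mitophagy, stood at 42.7, 76.3, 82.7, 63.3 and 45.0 CPM in the deficient pools A1, A2, A3, B2 and B4. Normal pools held 46.4 to 76.4 CPM with a median of 67.4, and the means, 62.0 ± 18.01 and 63.0 ± 12.9 CPM, differed by less than the spread within either group. NBR1, an adaptor for ubiquitinated aggregates and peroxisomes, was the steadiest of the 10 in normal pools, at 117 to 134 CPM with a median of 130. In deficient pools it stood at 118, 105, 168, 100 and 112 CPM, 3 of the 5 lying below every normal pool and A3 above every one. The log2 differences of OPTN (0.18, SE 0.25) and NBR1 (0.07, SE 0.20) were above 0 by edgeR's scaling, while both had the lower mean CPM in deficient pools.

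SQSTM1, also called p62, which binds ubiquitin and LC3 and gathers cargo into condensates, was scarce in pools and varied most among the adaptors. Deficient pools held 4.61, 0.483, 1.59, 8.36 and 4.22 CPM in the same order, from 7 counts in A2 to 214 in B2. Normal pools held 1.15 to 17.9 CPM with a median of 8.20. The highest pool was thus 37.0 times the lowest, and the state means of 3.85 ± 3.06 and 8.29 ± 5.54 CPM gave a log2 difference of -0.98 (SE 0.60) over groups that overlapped. Without normal B2, the highest pool, it was -0.66, and without deficient B2 it was -1.42.

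Among the outer membrane receptors, BNIP3, a hypoxia-induced receptor, had 4 to 141 counts in a pool. Deficient pools held 0.838, 0.276, 1.37, 2.42 and 1.496 CPM (A1, A2, A3, B2, B4), and normal pools 0.183 to 5.197 CPM with a median of 2.75. All deficient values lay within the normal range, and the log2 difference was -0.92 (SE 0.71). BNIP3L, also called NIX, which clears mitochondria from maturing red blood cells, stood at 126, 67.3, 81.4, 160 and 118 CPM in deficient pools and at 59.7 to 161 CPM with a median of 137 in normal ones. Here too every deficient pool fell inside the normal range. FUNDC1, whose receptor activity is held back by phosphorylation when oxygen is plentiful, stood at 72.2, 44.3, 64.6, 62.7 and 90.1 CPM in deficient pools and at 56.8 to 97.5 CPM with a median of 73.3 in normal ones. Deficient A2 was the only pool of its group below all normal ones.

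PINK1, the kinase that starts the parkin route, spread widely in both states, at 59.3, 21.3, 49.6, 138 and 74.2 CPM in deficient pools and at 29.01 to 148 CPM with a median of 80.0 in normal pools. Pool B2 was the highest of its group in each state. The prohibitins, which form rings in the inner mitochondrial membrane, were low. PHB had no count in deficient A2, where 3 counts would be 0.207 CPM, and 4.75 (A1), 0.750 (A3), 8.91 (B2) and 0.924 CPM (B4) in the others. Normal pools held 2.64 to 13.5 CPM of PHB with a median of 5.53, so that A2, A3 and B4 of the deficient group lay below all of them. The log2 difference of PHB was -1.07 (SE 0.80), -1.93 without deficient B2 and -0.75 without deficient A2. PHB2 stood at 10.1, 10.6, 6.09, 19.2 and 5.10 CPM in deficient pools, all within the 5.04 to 29.99 CPM of normal pools, whose median was 14.2.

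Over the 10 transcripts in pools, edgeR gave 3 log2 differences above 0 and 7 below, with a median of -0.11 against -0.00 over all 13540 genes tested. It called 0 of the 10, and 0 of all genes (0%), with adjusted p of 0.921 to 0.979 for the 10. Of all genes, 726 had an unadjusted p under 0.05, none of them among the 10. DESeq2 called 21 genes higher and 7 lower, again none of the 10, and limma-voom called 0. SQSTM1 and PHB kept the sign of their difference in all 20 alternatives, and the other 8 changed it in at least 1.

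**Figure D1:**
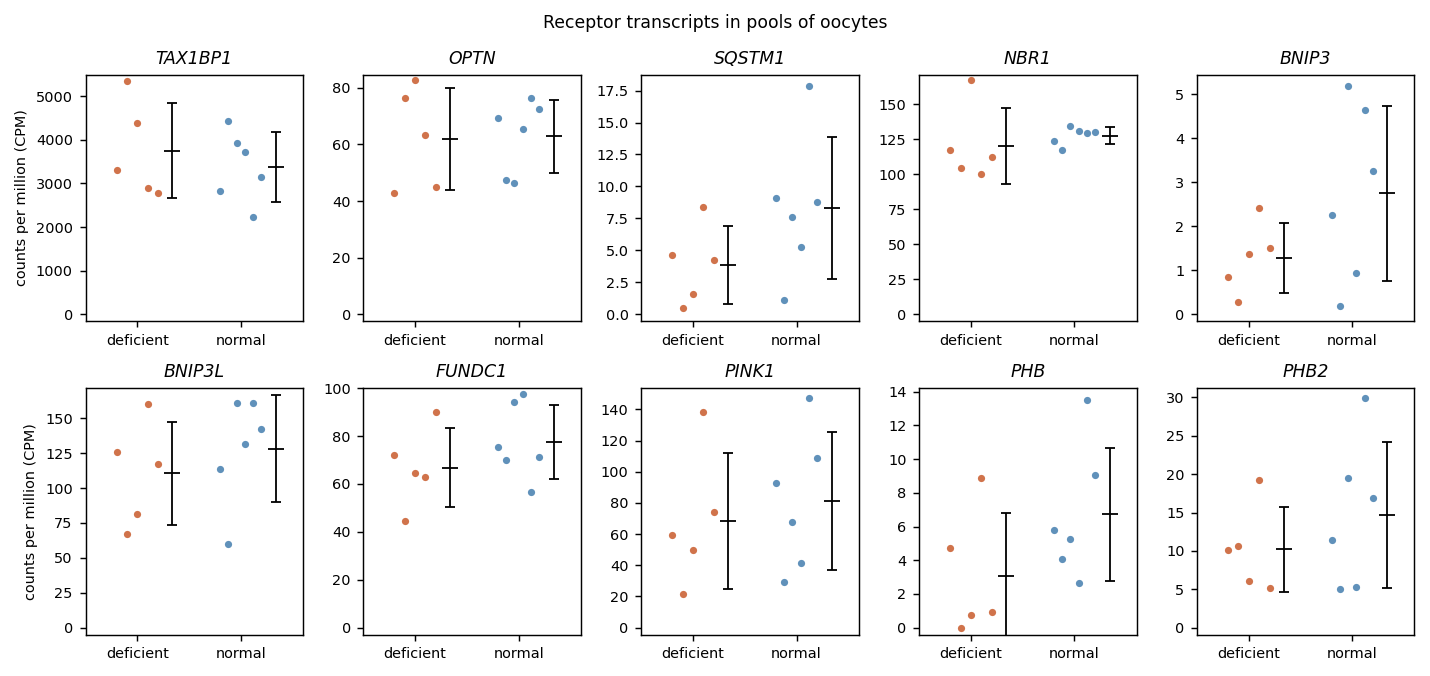
Each panel plots the level of 1 transcript (vertical axis, CPM) in the 5 mtDNA-deficient and 6 mtDNA-normal pools; points are libraries, the dash is the mean and the bars are 1 SD, with the lower bar of PHB in deficient pools cut at the axis. The states overlap in each panel, PHB reaches 0 in deficient A2, and NBR1 in deficient A3 stands alone at 168 CPM.

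In single oocytes, NBR1 had the largest ratio of mean CPM between the states among the 10, 1.77. Deficient oocytes held 8.34 to 64.7 CPM with a median of 28.5, and normal oocytes 2.83 to 32.4 CPM with a median of 17.1. In CPM, 6 of 14 deficient oocytes lay above all 15 normal ones. With LOC102158401 and RN18S out of the totals, only S16 (94.7 CPM), S20 (91.5) and S27 (182) lay above the highest normal oocyte, S30 (88.0). Such counts were not made over all genes. Oocytes with the same first number in the title, whose meaning is not given, were summed for testing. The deficient sums held 29.95, 33.5, 24.5 and 28.7 CPM of NBR1 (numbers 1, 2, 3 and 4) and the normal sums 13.8, 14.5 and 20.4 CPM (2, 3 and 4). These groups did not overlap, nor did they after LOC102158401 and RN18S were taken out of the totals (84.1 ± 21.5 against 51.2 ± 7.38 CPM, SD, n = 4 and 3). The log2 difference was 0.67 (SE 0.29, edgeR adjusted p = 1.00 over all genes), and it lay between 0.48 and 0.78 when 1 sum was left out.

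BNIP3 was the only other receptor whose sums did not overlap, at 36.2, 29.4, 30.6 and 29.6 CPM in deficient and 24.8, 22.9 and 24.9 CPM in normal sums, but they did overlap once the 2 rows were taken out of the totals. By comparison, 3.21% of all 11964 genes tested had deficient sums wholly above the normal ones in CPM. The mean CPM of all 10 transcripts was higher in deficient than in normal single oocytes, in which LOC102158401 took a larger share of the counts, 64.2% ± 5.205 (SD, n = 15) against 58.5% ± 6.71 (SD, n = 14). By edgeR on the sums, 7 lay above 0 and 3 below (median 0.15, against -0.00 over all genes). The signs of TAX1BP1 (-0.27, SE 0.21), OPTN (-0.07) and SQSTM1 (-0.06) were then opposite to those of their mean CPM over oocytes. TAX1BP1 already had the lower mean CPM over deficient sums (116 against 121), while OPTN (18.3 against 17.1) and SQSTM1 (83.8 against 76.1) had the higher one. Once LOC102158401 and RN18S were taken out of the totals, TAX1BP1 and SQSTM1 had the lower mean over deficient oocytes (336 against 375 CPM and 228 against 239 CPM). The remaining transcripts kept the higher mean there, from NBR1 (77.7 against 49.7 CPM) to BNIP3L (133 against 122 CPM) and PINK1 (94.6 against 87.9 CPM). Both rows were removed together, so the part of LOC102158401 alone in these differences was not tested.

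The adaptors SQSTM1 and OPTN overlapped almost fully between the states in single oocytes. SQSTM1 ranged from 39.3 to 132 CPM in deficient oocytes (median 86.2) and from 46.0 to 111 CPM in normal ones (median 80.6). OPTN ranged from 6.78 to 51.4 CPM (median 18.99) and from 2.83 to 40.2 CPM (median 15.3). BNIP3 ranged from 13.6 to 52.7 CPM (median 31.2) in deficient and from 9.83 to 39.6 CPM (median 26.96) in normal oocytes, with 2 deficient oocytes above all normal ones. BNIP3L held 27.8 to 61.5 CPM (median 52.9) and 16.5 to 82.2 CPM (median 35.2), the normal oocytes spreading on both sides of the deficient ones. FUNDC1 was at 0 in 1 oocyte of each state, where 3 counts would be 3.62 and 3.03 CPM, and otherwise reached 25.9 and 18.4 CPM with medians of 12.8 and 9.90.

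PINK1 ranged from 9.66 to 60.8 CPM (median 41.9) in deficient oocytes and from 10.1 to 68.3 CPM (median 25.05) in normal oocytes. Its deficient sums were uneven, at 40.8, 15.3, 44.1 and 39.4 CPM, against 30.8, 20.6 and 32.7 CPM in normal sums, so sum 2 lay under all normal ones, and sums 1, 3 and 4 above. PHB had no count in 1 deficient and 3 normal oocytes, where 3 counts would be 3.62 CPM and 0.978 to 3.03 CPM, and reached 24.3 and 22.9 CPM in others, with medians of 12.9 and 10.4. Its normal sums held 4.46, 2.63 and 14.5 CPM, the last close to the highest deficient sum (9.75, 14.5, 9.53 and 14.3 CPM). The log2 difference of PHB was 0.65 (SE 0.48), and 1.48 without normal sum 4. PHB2 ranged from 28.8 to 67.5 CPM (median 54.3) in deficient and from 8.19 to 64.2 CPM (median 33.9) in normal oocytes, with a log2 difference of 0.23 (SE 0.23) between the sums.

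edgeR called 0 of the 10 transcripts between the sums, and 0% of the 11964 genes tested. An unadjusted p under 0.05 was reached by 231 genes. NBR1 was the only one of the 10 among those 231, and its unadjusted p was 0.0343. With the title number as a replicate block over the 6 sums that have a partner, 0 genes were called higher and 2 lower, none of the 10, and DESeq2 called 1 higher and 1 lower and limma-voom 0, none of the 10. The columns carry 2 dates, which held similar numbers of both states. Title numbers 1 and 3 belong to 17 September and number 2 to 22 September, while sum 4 of each state joins both dates, so the title number and the date are largely not separate. NBR1 had the higher mean in deficient oocytes on each, 28.9 ± 7.50 against 17.3 ± 6.62 CPM on 17 September (SD, n = 8 and 9) and 29.97 ± 20.9 against 15.5 ± 11.2 CPM on 22 September (SD, n = 6 and 6). For PHB the gap was on 22 September, at 16.6 ± 4.45 against 8.59 ± 7.72 CPM, with 9.40 ± 5.53 against 9.26 ± 7.02 CPM on 17 September. For PINK1 it was on 17 September, at 32.5 ± 14.8 against 21.3 ± 7.34 CPM, with 39.4 ± 19.9 against 40.2 ± 20.3 CPM on 22 September. Whether the dates differ in these gaps was not tested.

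**Figure D2:**
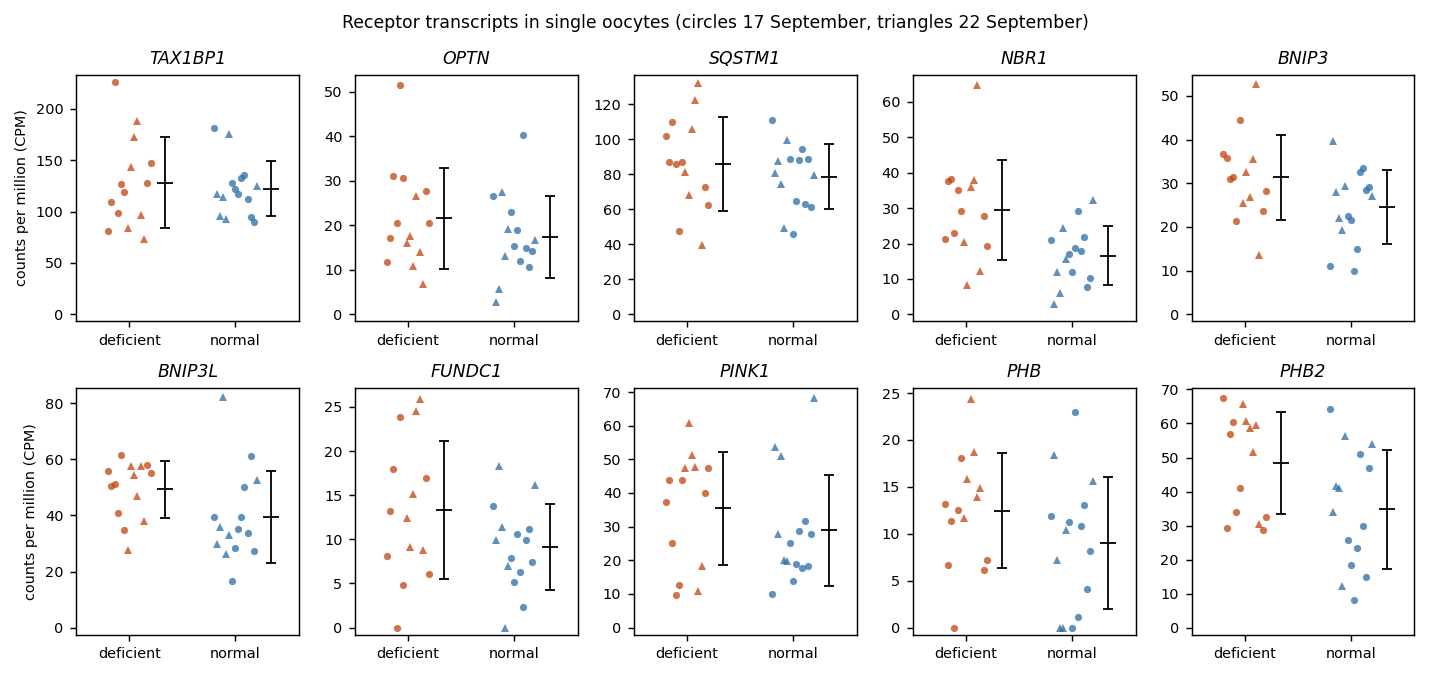
Each panel plots 1 transcript (vertical axis, CPM) in 14 mtDNA-deficient and 15 mtDNA-normal single oocytes; circles and triangles are the 2 dates in the column names, the dash is the mean and the bars are 1 SD. All panels overlap, and in NBR1 6 deficient oocytes lie above the highest normal one in CPM. With LOC102158401 and RN18S out of the totals, which is not plotted, only S16, S20 and S27 do.

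The state differences in pools and in single-oocyte sums were set against each other by an interaction term. It gave log2 values of -1.69 (SE 1.12) for PHB, -1.06 (SE 0.78) for BNIP3, -0.88 (SE 0.70) for SQSTM1, -0.57 (SE 0.34) for NBR1 and 0.57 (SE 0.44) for TAX1BP1, a positive value being a difference more toward deficient in pools. edgeR called 0 of the 10 and 0% of 17643 genes, with adjusted p of 0.915 to 1.00 for the 10 and 939 genes at an unadjusted p under 0.05. DESeq2 called 1 gene and limma-voom 0, none of the 10. Their median was -0.47 against -0.05 over all genes, 8 of 10 lying below 0.

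**Figure D3:**
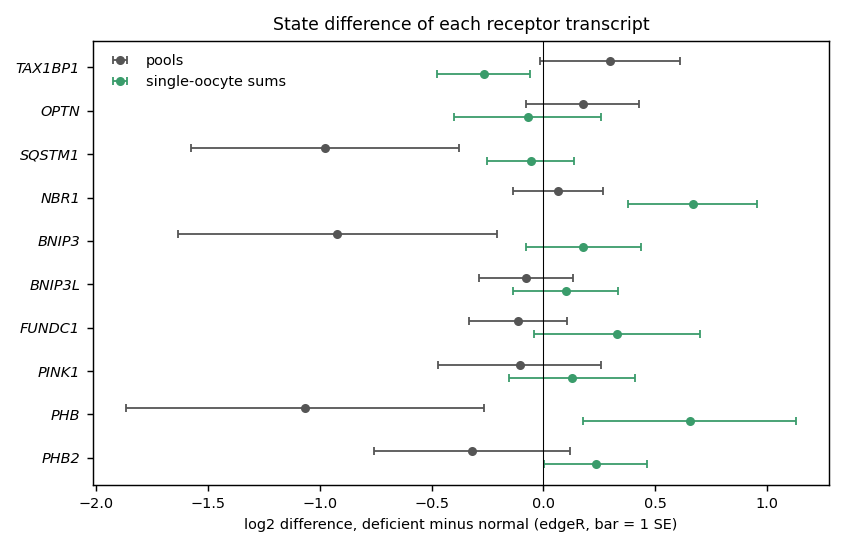
Log2 differences, deficient minus normal, of the 10 transcripts (horizontal axis) in pools (grey) and in single-oocyte sums (green) from edgeR, with bars of 1 SE. SQSTM1, BNIP3 and PHB lie near -1 in pools with wide bars, while NBR1 and PHB lie near 0.65 in the sums.

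Log2 differences between the library types were larger than those between the states for most receptors. The type changes with the kit, the depth, the share of LOC102158401 and the number of oocytes, so these cannot be told apart. edgeR called all 10, 6 higher and 4 lower in pools, where 67.1% of all 17643 genes were called (31.9% higher and 35.3% lower). At that background the count of 10 says little about the receptors, so the sizes are given as a description.

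The mean of TAX1BP1 was 3547 ± 911 CPM over pools (SD, n = 11), against 125 ± 35.7 CPM over single oocytes (SD, n = 29), a ratio of 28.3, or 10.004 with LOC102158401 and RN18S out of the totals. The log2 difference from edgeR was 4.48 (SE 0.27), and it stayed between 4.03 and 4.58 in 25 alternatives. FUNDC1 stood at 72.7 ± 16.2 against 11.2 ± 6.70 CPM (log2 2.25, SE 0.21) and NBR1 at 124 ± 18.2 against 22.8 ± 13.02 CPM (log2 2.01, SE 0.19). For these 3, every pool lay above every single oocyte in CPM, as for 14% of all genes. With the 2 rows out, this held for TAX1BP1 but not for NBR1 and FUNDC1, whose ratios fell from 5.46 to 1.98 and from 6.495 to 2.32. The deficient oocyte S27 then had 182 CPM of NBR1, above the highest pool at 168, and 73.0 CPM of FUNDC1, above the lowest at 44.4. OPTN, at 62.5 ± 14.6 and 19.4 ± 10.4 CPM, was higher in pools with overlap (log2 1.35, SE 0.23), and its ratio was 1.15 with the 2 rows out.

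SQSTM1 and BNIP3 ran the other way. SQSTM1 averaged 6.28 ± 4.95 CPM over pools, against 82.1 ± 22.8 CPM over single oocytes, 13.1 times the pools' mean and 36.9 times with the 2 rows out of the totals (log2 -4.42, SE 0.37). BNIP3 stood at 2.08 ± 1.68 and 27.8 ± 9.56 CPM, 13.4 times and 38.3 times (log2 -4.47, SE 0.42). Every single oocyte lay above every pool for both, as for 2.78% of all genes. The prohibitins overlapped, PHB2 at 12.7 ± 7.96 and 41.3 ± 17.5 CPM (log2 -2.20, SE 0.29) and PHB at 5.06 ± 4.14 and 10.7 ± 6.74 CPM (log2 -1.67, SE 0.59). Single oocytes held 3.27 times the pools' mean of PHB2 and 2.11 times that of PHB, or 9.14 and 5.82 times with the 2 rows out.

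For BNIP3L and PINK1 the direction depended on the total. BNIP3L averaged 120 ± 37.0 CPM over pools, against 44.2 ± 14.4 CPM over single oocytes, but its ratio was 0.949 with the 2 rows out, against 2.72 with them. PINK1 stood at 75.4 ± 42.2 and 32.1 ± 16.6 CPM, a ratio of 2.35, or 0.833 with the 2 rows out. edgeR's own scaling placed both higher in pools, at log2 0.88 (SE 0.17) and 0.70 (SE 0.28), while all genes had a median of -0.17, or -0.66 by DESeq2. The call of PINK1 (edgeR adjusted p = 0.0292) was lost by DESeq2 (0.514), by limma-voom (0.145), and without deficient pool B2 (0.0890), normal pool B2 (0.0504), deficient sum 2 (0.0614) or normal sum 3 (0.0541). It was also lost in normal (0.0516) and deficient libraries alone (0.404). That of PHB (edgeR adjusted p = 0.0155) was lost without normal sum 4 (0.0517) and in normal libraries alone (0.306).

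**Figure D4:**
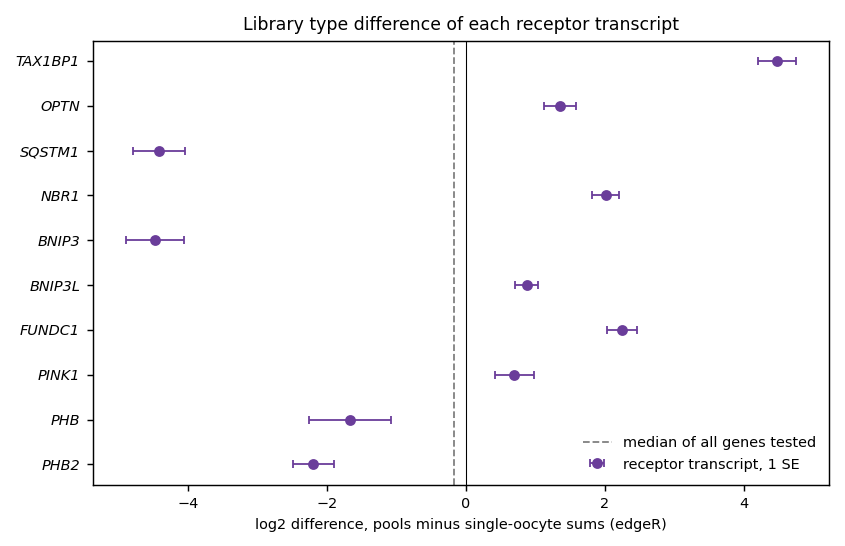
Log2 difference of each transcript, pools minus single-oocyte sums (horizontal axis), from edgeR, with bars of 1 SE; the dashed line is the median of all 17643 genes tested. TAX1BP1 lies at 4.48 and SQSTM1 and BNIP3 near -4.4, with the other 7 between.

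Within the pools, 4 of the 10 transcripts (TAX1BP1, PINK1, SQSTM1 and PHB2) changed with the share of counts on RN18S, the 18S ribosomal RNA gene, a comparison added after the data were seen. That share was 0.441%, 0.177%, 0.204%, 0.427% and 0.238% in deficient A1, A2, A3, B2 and B4, and 0.175% to 1.30% with a median of 0.691% in normal pools. The 2 pools richest in TAX1BP1, deficient A2 and normal A3, had the lowest shares, and the poorest, normal B2, the highest. Deficient A2 (14207) and normal A3 (15057) also had the fewest genes with a count among the pools, and normal B2 (19245) the most. The share and the number of genes with a count were not tested apart. In a model with state and the log2 share, TAX1BP1 fell by 0.49 on the log2 scale per doubling of the share (SE 0.11, edgeR adjusted p = 0.00973). PINK1 rose by 0.62 (SE 0.13, adjusted p = 0.00752), SQSTM1 by 0.86 (SE 0.26, adjusted p = 0.0351) and PHB2 by 0.61 (SE 0.20, adjusted p = 0.0444), all by edgeR. Thus 3 of 10 were called higher and 1 lower with the share, against 7.14% and 8.73% of all genes (967 and 1182 of 13540). BNIP3 (0.98, SE 0.40), PHB (0.81, SE 0.38) and BNIP3L (0.18, SE 0.10) had values above 0 and NBR1 (-0.20), FUNDC1 (-0.25) and OPTN (-0.14) below, with edgeR adjusted p of 0.0980 to 0.527.

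These calls leaned on single pools. Without normal A3, only PINK1 was called (edgeR adjusted p = 0.0458; TAX1BP1 0.0776), and likewise without normal B2 (PINK1 0.0398; TAX1BP1 0.0532). SQSTM1 was also lost without deficient A1, A3 or B2 or normal A2, with edgeR adjusted p of 0.0512 to 0.0681. PHB2 was lost without deficient A3 or B2 or any 1 normal pool, with edgeR adjusted p of 0.0501 to 0.195. In the 6 pools titled A alone only TAX1BP1 was called (edgeR adjusted p = 0.0284), and the 5 titled B were not fitted alone. BNIP3L was called only without normal B1 (edgeR adjusted p = 0.0458). All 10 signs held in each of the 13 alternatives. With the share as a covariate, the state differences became -0.12 (SE 0.22) for TAX1BP1, -0.21 (SE 0.48) for SQSTM1, 0.24 (SE 0.72) for BNIP3, 0.50 (SE 0.25) for PINK1 and 0.39 (SE 0.39) for PHB2, and that of PHB was -0.68 (SE 0.69). Whether the share caused any of this was not tested.

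**Figure D5:**
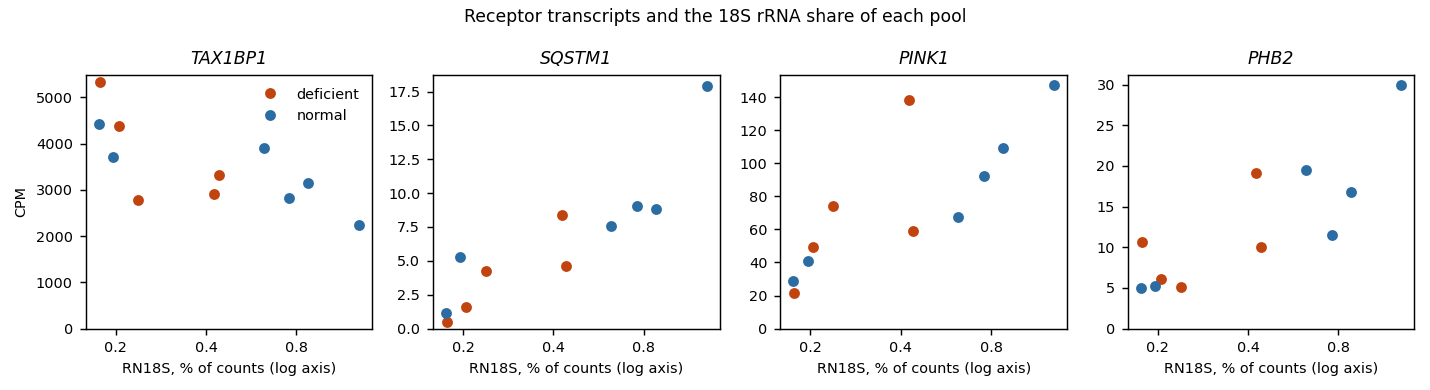
Levels of TAX1BP1, SQSTM1, PINK1 and PHB2 in the 11 pools (vertical axes, CPM) against the percentage of the pool's counts on RN18S (horizontal log axis); each point is a pool, coloured by state. TAX1BP1 is lowest and the other 3 highest in normal B2, the pool with the largest share, 1.30%.

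Genes whose log2 CPM closely resembled that of TAX1BP1 over the 11 pools, among 4841 with a mean of at least 10 CPM, were RBM48 (Pearson r = 0.989), SECISBP2L (0.982), ERO1A (0.981) and RIF1 (0.981). Of the receptors, NBR1 had r = 0.741 with TAX1BP1 there and PINK1 r = -0.906. Over the 29 single oocytes, among 4536 genes, the highest Pearson r were of EEA1 (0.739), USO1 (0.693), IDE (0.685), S100PBP (0.680) and SMC3 (0.654). NBR1 had -0.0801 there and PINK1 -0.0641. The choice of genes depended on the measure. By Spearman correlation, with ties cut by row order, 0 of the 5 top genes in pools stayed among the top 5. SECISBP2L was tied with other genes at about place 5 there (rho = 0.973) and fell outside by that cut. In single oocytes 1 of the 5 stayed. RBM48 in pools and USO1 in single oocytes were each at place 36. These are descriptions, since points of 1 table share depth, library make-up and the RN18S share.

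The other genes of the pathway showed the same lack of calls between the states, 0 in each of 7 lists in pools and in sums. Genes of smallest p are named for each list. Of 6 listed partners of TAX1BP1, 5 were tested in pools, without TNFAIP3. All 5 lay above 0 in deficient pools, with a median log2 of 0.66 against -0.00 over all genes, TNIP1 with a wide error (1.48, SE 1.09). RNF11, which works with TAX1BP1 in the A20 ubiquitin-editing complex, had 22.99 ± 4.46 CPM in deficient pools, against 14.4 ± 4.07 CPM in the normal ones (log2 0.77, SE 0.32), and the ligase TRAF6 at 17.4 ± 5.98 and 11.99 ± 5.35 CPM (log2 0.66, SE 0.32). In the sums, 1 of 5 lay above 0 (median -0.26). There MYO6, a myosin that binds TAX1BP1, stood at 35.0 ± 7.79 against 41.6 ± 8.06 CPM, and TRAF6 at 11.6 ± 4.21 against 6.03 ± 2.84 CPM.

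The parkin and ubiquitin genes lay above 0 for 10 of 13 in pools (median 0.17). TOMM20, an import receptor, stood at 14.03 ± 4.65 against 10.3 ± 4.52 CPM, and the deubiquitinase USP15, at 29.9 ± 4.06 against 25.8 ± 7.11 CPM. In the sums they split 7 and 7 (median 0.01), with the deubiquitinase USP8 at 53.8 ± 18.4 against 36.8 ± 6.48 CPM. Other receptors and adaptors lay above 0 for 4 of 6 in pools (median 0.06). AMBRA1, which can act as a mitophagy receptor, stood at 25.8 ± 20.6 against 60.5 ± 42.1 CPM, and BCL2L13, an outer membrane receptor, at 24.0 ± 6.57 against 19.96 ± 3.11 CPM. In the sums 4 of 7 lay above 0 (median 0.02), BCL2L13 at 18.02 ± 3.33 against 13.7 ± 4.73 CPM and FKBP8, another outer membrane receptor, at 14.6 ± 3.03 against 14.9 ± 1.495 CPM.

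Initiation genes split 8 and 8 in pools (median 0.02) and 5 above to 12 below 0 in the sums (median -0.14). WDR45B, a WIPI family protein, had the smallest p of all these genes in pools, at 31.7 ± 6.39 against 55.1 ± 9.004 CPM (log2 -0.66, SE 0.19, edgeR adjusted p = 0.690), and the lipid scramblase ATG9A followed, at 1.42 ± 1.38 against 4.74 ± 3.53 CPM. ATG13, a subunit of the ULK1 kinase complex, stood at 26.9 ± 2.29 against 15.3 ± 1.76 CPM in the sums (log2 0.62, SE 0.28), and its partner ATG101 at 50.8 ± 29.4 against 57.5 ± 10.4 CPM. Lysosomal genes lay below 0 for 8 of 11 in pools (median -0.10). TFE3, a transcription factor of lysosomal genes, stood at 19.4 ± 11.8 against 39.0 ± 14.4 CPM and the calcium channel MCOLN1 at 4.45 ± 2.01 against 10.1 ± 4.95 CPM. In the sums 5 of 9 lay below 0 (median -0.04), TFE3 at 59.5 ± 15.3 against 61.1 ± 8.79 CPM and MCOLN1 at 12.8 ± 5.58 against 9.54 ± 3.33 CPM.

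ATG8 proteins, the docking partners of the receptors, had 3 genes tested in pools, 1 above 0 and 2 below (median -0.01). GABARAPL1 stood at 0.519 ± 0.502 against 0.810 ± 0.877 CPM and GABARAPL2 at 19.7 ± 4.34 against 21.7 ± 7.85 CPM. The sums split 2 and 2 (median -0.17), GABARAPL2 at 11.8 ± 5.21 against 16.6 ± 2.07 CPM and MAP1LC3B at 23.5 ± 10.3 against 15.2 ± 5.36 CPM. Of the genes that attach ATG8 proteins to lipid, 4 lay above and 4 below 0 in pools (median -0.03), with ATG4C at 1.02 ± 0.983 against 2.13 ± 0.657 CPM and ATG12 at 41.0 ± 15.5 against 36.9 ± 12.3 CPM. In the sums 2 lay above and 4 below (median -0.10). The protease ATG4D stood there at 9.56 ± 2.48 against 4.37 ± 2.05 CPM, and ATG16L1 at 56.5 ± 21.4 against 60.6 ± 21.2 CPM. For the difference of the state effect between pools and sums, 0 genes of the 7 lists were called.

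Between library types, edgeR called 24 listed genes higher and 23 lower in pools of the 73 tested in the 7 lists, beside the 31.9% and 35.3% of all genes. The parkin and ubiquitin list had 8 higher and 2 lower of 14, such as PARL, a protease that cleaves PINK1, at 315 ± 77.8 CPM over pools against 21.5 ± 12.9 CPM over single oocytes, and TOMM7, which holds PINK1 at the outer membrane, at 126 ± 33.1 and 5.95 ± 5.18 CPM. Of the ATG8 family 0 of 5 were called higher and 2 lower, MAP1LC3A at 0.277 ± 0.280 and 4.87 ± 5.24 CPM and GABARAP at 0 counts in all 11 pools, where 3 counts would be 0.102 to 0.207 CPM, and 2.70 ± 3.58 CPM in single oocytes. TAX1BP1's partners had 2 higher and 1 lower of 6, with MYO6 at 271 ± 27.4 and 39.5 ± 15.004 CPM and the ligase ITCH at 512 ± 127 and 75.4 ± 23.1 CPM. Initiation genes had 7 higher and 8 lower of 18, with RB1CC1, also called FIP200, at 501 ± 59.6 and 47.8 ± 19.9 CPM and WDR45B at 44.4 ± 14.3 and 256 ± 60.6 CPM. Conjugation genes had 4 higher and 2 lower of 9, with the proteases ATG4A at 973 ± 136 and 147 ± 42.9 CPM and ATG4D at 0.314 ± 0.445 and 7.04 ± 5.42 CPM. Lysosomal genes had 2 higher and 5 lower of 13, with the lysosomal membrane protein LAMP2 at 53.5 ± 14.1 and 8.25 ± 6.10 CPM and TFE3 at 30.1 ± 16.2 and 64.5 ± 21.1 CPM. The remaining receptors had 1 higher and 3 lower of 8. WDFY3, an adaptor for protein aggregates, stood at 698 ± 167 and 294 ± 77.4 CPM, and FKBP8 at 0.516 ± 0.703 and 15.2 ± 8.21 CPM. All these list means have LOC102158401 and RN18S in the totals and were not recomputed without them, so the ratios between library types depend on the total. For WDFY3 the edgeR log2 difference was 0.79 (SE 0.14). That of BNIP3L was 0.88, and its ratio of means was 0.949 with the 2 rows out.

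With the RN18S share of the pools, edgeR called 11 listed genes higher and 6 lower of the 62 tested, beside 7.14% and 8.73% of all genes. The calls of listed genes and markers were not checked with a pool left out. Calls over all genes then ranged from 443 (without normal A3) to 2465 (without normal B1), against 2149 with all pools. Lysosomal genes had 5 higher and 1 lower of 11, among them the membrane protein LAMP1 (log2 0.67 per doubling, SE 0.11) and the protease CTSB (0.88, SE 0.18). AMBRA1 (0.91, SE 0.15), the ULK1 kinase gene (1.02, SE 0.29), the phosphoinositide-binding WIPI2 (0.74, SE 0.22), the parkin partner FBXO7 (0.72, SE 0.12) and ATG16L1 (0.52, SE 0.12) rose with the share. MYO6 (-0.28, SE 0.07), ITCH (-0.35, SE 0.11), USP8 (-0.46, SE 0.10) and ATG12 (-0.50, SE 0.16) fell, TAX1BP1's partners having 0 higher and 2 lower of 5. MAP1LC3B (0.38, SE 0.13), GABARAPL2 (0.22) and WDFY3 (0.13) were not called. Of 8 oocyte markers, 5 were called higher and 0 lower with the share. The 1 leukocyte marker tested, CD3E, was also called higher (log2 2.10, SE 0.65, edgeR adjusted p = 0.0404), and 0 of 4 cumulus and granulosa and 0 of 2 stroma markers were called. The 5 leukocyte and blood markers with a row summed to at most 5.63 CPM in a pool.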

How the data were processed

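The authors deposited raw read counts for each gene, as whole numbers, for 11 pools and 29 single oocytes in separate tables. Per the labels' protocols, pools went through a column extraction kit and isothermal amplification, single oocytes through in-tube extraction and another kit, and all were read as 100 bp pairs. FastQC, Trim Galore, TopHat2 2.0.14, edgeR and build Sscrofa10.2 are named per the submitters' processing notes. The counter, with its strand setting, is not given in the sources used here, so overlapping antisense genes cannot be told apart, and shared reads of near-identical copies are uncertain. A row naming no gene (1.05% to 4.75% of a pool's counts, 0.648% to 8.15% of an oocyte's) was left out.

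For the tests, edgeR 4.0.16 (R 4.3.3) fitted quasi-likelihood models to the counts (TMM, its default expression filter, Benjamini-Hochberg adjustment over all genes, threshold 0.05). DESeq2 1.42.0, limma-voom (limma 3.58.1), no filter, left-out libraries, title codes, letters and dates were tried as alternatives. The test was tested on simulated data. All 10 members passed the filter in each comparison. Single oocytes were summed by state and title number, since cells of 1 sum may share a source, and p-values measure only the spread between these libraries or sums, which may be technical. The 3 pairs of sums with the same title number deviated together (r = 0.143, 0.220 and 0.165), above those of different numbers (-0.149 to 0.0244), but no label states a pairing. The main fits of the sums used no replicate block, and a block on the title number was run as an alternative. No 2 libraries of a group agreed within sampling noise (smallest chi-square per degree of freedom 35.0 in pools and 4.09 in oocytes). Counting error alone limits low values, 3 counts being 0.102 to 0.207 CPM in pools and 0.978 to 4.24 CPM in oocytes. CPM used all named rows as the total, and log2 CPM a prior count of 2. The members and lists were chosen with earlier results of these data known. Named genes are all members, the 2 of smallest p in each list for each comparison (for the difference of the state effect, counts only), and the 5 most like TAX1BP1, a few of which are not reported here. MARCH5, MFN2, ATG4B and TFEB matched no row. Genome positions are not given, as the name tables are of another build (Sscrofa11.1).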

Additional observations from a re-analysis of the deposited data

Results flagged for a closer look

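Of 30 groups of member values with 4 to 10 libraries or sums searched for a value far from the others, 2 held one, where chance gives about 1 in 20. NBR1 in deficient pool A3 stood at 168 CPM, and the nearest of the 5 deficient pools at 118 CPM. PINK1 in deficient single-oocyte sum 2 stood at 15.3 CPM, and the nearest of the 4 deficient sums at 39.4 CPM.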

How the results depend on the processing

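None of the 10 transcripts passed the threshold between the states, or in the difference of the state effect, under any alternative run. DESeq2 called 28 genes in pools. edgeR called 0 with all pools and with each pool left out in turn, and DESeq2 was not run with a pool left out. In the single-oocyte sums, calls went from 0 to 2 by DESeq2. By edgeR they went to 4 with no filter on low counts and to 1 with each oocyte as a sample, also with date as a term. They went to 2 on 17 September alone, and leaving out each sum gave 0, both by edgeR. The difference of the state effect had 1 call by DESeq2, 6 with no filter and 3 with each oocyte as a sample. With the RN18S share, leaving out 1 pool moved the calls from 2149 to between 443 (without normal A3) and 2465 (without normal B1), with 787 without normal B2, and members called to between 1 and 4. Pools titled A alone gave 543 and 1, and limma-voom gave 2486 calls. The causes were not tested. A replicate block on the title number gave 2 calls over the 6 sums that share a number (0 without the block). No label says whether the 4 title codes shared by pools pair them. Deviations of pools with 1 code had r of -0.105, 0.127, 0.476 and 0.0781, and those of different codes -0.347 to 0.289, so a pairing was left undecided. A replicate block there gave 0 calls, as did the same 8 pools without it, and moved PHB from -1.55 to -2.83. For single transcripts, 940 values under alternatives kept direction and side of the threshold or moved little, 32 moved, 29 no longer passed, 1 newly passed and 0 turned from a call to the other sign. Low counts limit PHB, BNIP3 and SQSTM1 in pools and FUNDC1 and PHB in single oocytes.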

Other observations

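Over both states, PINK1 stood at 26.6 ± 12.5 CPM in the 17 single oocytes dated 17 September and at 39.8 ± 19.2 CPM in the 12 dated 22 September (SD), and PHB2 at 37.2 ± 17.9 and 47.2 ± 15.7 CPM. OPTN ran the other way, at 22.7 ± 10.96 and 14.7 ± 7.61 CPM, while TAX1BP1 stood at 126 ± 34.7 and 123 ± 38.6 CPM. The ranges overlapped for all 4 transcripts, and the difference between dates was not tested.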
